A study of Mus musculus with 42 samples.

Results

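Transcripts of the mitochondrial ribosomal proteins were followed in the livers of 25-month-old male and female C57BL6/N mice fed rapamycin (Rapa) or a control diet (Ctrl). Members were all array probes whose platform gene symbol began with Mrpl (large subunit) or Mrps (small subunit) followed by a number. This gave 97 of the 17082 probes with deposited normalized values, 59 probes of 43 genes for the large subunit and 38 probes of 27 genes for the small subunit. Rapa animals had received 14 ppm encapsulated rapamycin in the food from 19 months of age for 6 months, and Ctrl animals the same food with the Eudragit capsule material alone. Liver RNA from each mouse was hybridised to an Illumina Mouse Ref8 BeadChip, with 11 Rapa F, 9 Ctrl F, 12 Rapa M and 10 Ctrl M arrays (F, female; M, male). The labels name no allele beside the strain, and the animals were not fasted before the tissue was taken. The sources used here name neither the slide nor the hybridisation day of an array.

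The mitochondrial ribosome translates the few proteins that mitochondrial DNA encodes, all of them subunits of the respiratory chain and the ATP synthase. Its rRNAs are made in the mitochondrion, whereas all of its proteins are encoded in the nucleus, made in the cytosol and imported. The small subunit reads the mRNA, and the large subunit joins the amino acids and holds the exit tunnel, which opens at the inner membrane. Some of the proteins have bacterial counterparts and others are found only in mitochondrial ribosomes. Hepatocytes are rich in mitochondria. Rapamycin inhibits mTORC1, a kinase complex that controls cytosolic protein synthesis and has been linked to the making of mitochondrial proteins. The genes Mrps18a and Mrps30 carry small subunit names although their products sit in the large subunit of the mammalian particle, and they are counted here by their names. Mrpl44, Mrpl45 and Mrps36 were not analysed here.

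The promoters of these genes are known for binding sites of NRF1, of ETS factors such as GABPA, of YY1 and of E-box binding proteins. The RefSeq promoter table (GRCm38.p6, 250 bases before to 50 after each gene's start) held 62 of the 70 member genes. The 250 bases before the start are shown for the 5 genes with the largest falls in Rapa F among those with an entry, each written 5′ to 3′ in the gene's own direction. Each gene was placed by its probe with the largest absolute ratio. For Mrpl18 that probe was not detected in Rapa F, so its place is uncertain, and its other probe was at 0.12. Capitals mark matches to the palindromic NRF1 consensus, ETS (CCGGAAG), YY1 (AAGATGGC) or E-box (CACGTG) letters on either strand.
Mrpl20, chr4:155802628-155802877, forward strand: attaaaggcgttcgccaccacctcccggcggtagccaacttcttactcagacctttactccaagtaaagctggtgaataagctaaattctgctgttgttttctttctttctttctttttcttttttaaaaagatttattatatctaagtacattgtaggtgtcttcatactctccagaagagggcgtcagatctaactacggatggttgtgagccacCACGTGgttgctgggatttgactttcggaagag
Mrpl39, chr16:84735245-84735494, reverse strand: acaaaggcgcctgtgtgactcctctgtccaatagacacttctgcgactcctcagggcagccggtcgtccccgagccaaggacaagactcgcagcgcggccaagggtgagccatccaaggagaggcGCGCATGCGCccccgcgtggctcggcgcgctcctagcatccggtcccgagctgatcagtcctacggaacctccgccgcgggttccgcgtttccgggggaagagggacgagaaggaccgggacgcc
Mrpl18, chr17:12916092-12916341, reverse strand: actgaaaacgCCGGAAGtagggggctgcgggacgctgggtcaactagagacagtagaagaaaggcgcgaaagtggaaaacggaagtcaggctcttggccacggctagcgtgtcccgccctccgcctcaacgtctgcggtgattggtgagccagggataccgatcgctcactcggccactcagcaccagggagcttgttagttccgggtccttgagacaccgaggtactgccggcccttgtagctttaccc
Mrps18c, chr5:100798509-100798758, forward strand: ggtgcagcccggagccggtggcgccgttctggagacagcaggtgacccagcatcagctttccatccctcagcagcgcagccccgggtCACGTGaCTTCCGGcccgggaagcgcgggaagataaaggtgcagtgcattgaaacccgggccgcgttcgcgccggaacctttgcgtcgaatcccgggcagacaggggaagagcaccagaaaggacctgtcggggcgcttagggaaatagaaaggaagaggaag
Mrpl47, chr3:32736756-32737005, reverse strand: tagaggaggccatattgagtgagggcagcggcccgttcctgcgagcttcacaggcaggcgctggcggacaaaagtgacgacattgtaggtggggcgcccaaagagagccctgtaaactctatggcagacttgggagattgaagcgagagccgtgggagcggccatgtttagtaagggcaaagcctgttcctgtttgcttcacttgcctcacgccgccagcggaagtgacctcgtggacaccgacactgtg
Mrpl20 held an E-box 33 bases before the start, Mrpl39 an NRF1 match, Mrpl18 an ETS match near the far end, and Mrps18c an E-box with an ETS match just after it. None of the 4 letter strings was found in the window of Mrpl47.

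Over the 62 member promoters, ETS letters were present in 24 (38.7%), against 9.12% of 27025 mouse promoters of the same length and 17.9% of the 7282 promoters whose genes had a tested probe. YY1 letters were found in 11 members (17.7%), against 2.88% of all promoters and 4.75% of those of tested genes. NRF1 letters occurred in 10 members (16.1%), against 4.78% and 10.4%, and E-box letters in 5 members (8.06%), against 7.24% and 10.1%. Of the 14 genes with an entry that fell in Rapa F (described below by their values), 6 held ETS letters, 3 held NRF1 letters, 2 held an E-box and 0 held YY1 letters. These matches are a description of the letters in the window and not of bound sites.

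Members were well measured. A probe counted as detected on an array when its detection p was under 0.05, and 12719 probes detected on at least 9 arrays were tested. Of the 97 members, 96 were tested (58 large, 38 small), and the remaining probe, Mrpl51 ILMN_2831273, was detected on too few arrays. On all 42 arrays 84 members were detected, which was 87.5% of the tested members against 61.5% of all tested probes. A probe was called when its adjusted p was under 0.05 in a limma fit over the 4 groups (Benjamini-Hochberg over all 12719 probes) and its absolute log2 ratio was over 0.15, or 1.11-fold. Levels are log2 signals after quantile normalization, and levels of different probes are not compared with each other. The number of arrays limits the precision, and in whole liver fewer cells of a type and less RNA per cell cannot be told apart.

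The arrays of a group were not alike in every respect. Ctrl F 6 to 9 stood apart, with 9519 to 10406 detected probes and 88 to 92 detected members, against 10765 to 11043 probes and 93 to 96 members on Ctrl F 1 to 5. Background signal was higher on male arrays (116 to 141 in Rapa M and 108 to 129 in Ctrl M) than on female arrays (78.4 to 108 in Rapa F and 76.5 to 89.7 in Ctrl F). Among the 9720 probes that no array detected, the first 3 principal components accounted for 73.4% of the variance of the split between Rapa F and Ctrl F, 84% of that between Rapa M and Ctrl M and 97.5% of that between the sexes. Hepatocyte markers were at a mean log2 level of 12.8 to 13.2 in every liver, with 8 of 9 detected and Tat never detected. The neutrophil markers, with all 8 detected on some array, had the widest range, 7.73 to 12.3 in Rapa F, 7.85 to 12.7 in Ctrl F, 7.80 to 9.67 in Rapa M and 7.53 to 9.27 in Ctrl M. Endothelial markers, with Kdr never detected, were at 8.93 to 9.69 in Rapa F and 9.22 to 9.76 in Ctrl F, and 2 of the 6 were called lower in Rapa F, as was 1 marker each of hepatocytes, Kupffer cells and stellate cells. The part of these differences in the member results was not tested beyond the values given with each result.

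In females on Rapa, a set of mitochondrial ribosomal protein transcripts was lower and few were higher. Of the 96 tested members, 18 probes of 16 genes fell and 3 probes of 3 genes rose in Rapa F relative to Ctrl F. The share that fell, 18.8%, compares with 9.37% of all tested probes, and the share that rose, 3.12%, with 12.2%. Fewer were called under other settings. Median centring gave 2 higher and 9 lower, beside 11.4% and 6.93% of all tested probes. The methods' t-test called 12 members, all lower, beside 7.68% of all tested probes higher and 7.01% lower. A fit on the compared groups alone called 13, all lower, beside 8.48% and 7.31%. Runs of animal numbers as a random block also gave 13, all lower, beside 9.72% and 8.17%. Large subunit members fell for 12 of 58 probes and rose for 1, and small subunit members fell for 6 of 38 and rose for 2. The median log2 ratio was -0.07 over the large subunit and -0.04 over the small subunit, beside 0.02 over all tested probes. These medians were small beside the spread between livers given below, and both turned positive when arrays were centred on their medians in place of quantile normalization, at 0.03 and 0.02 beside 0.06 over all tested probes. Most of the remaining members lay close to 0, and in all 61 members were below 0 and 35 above.

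**Figure D1:**
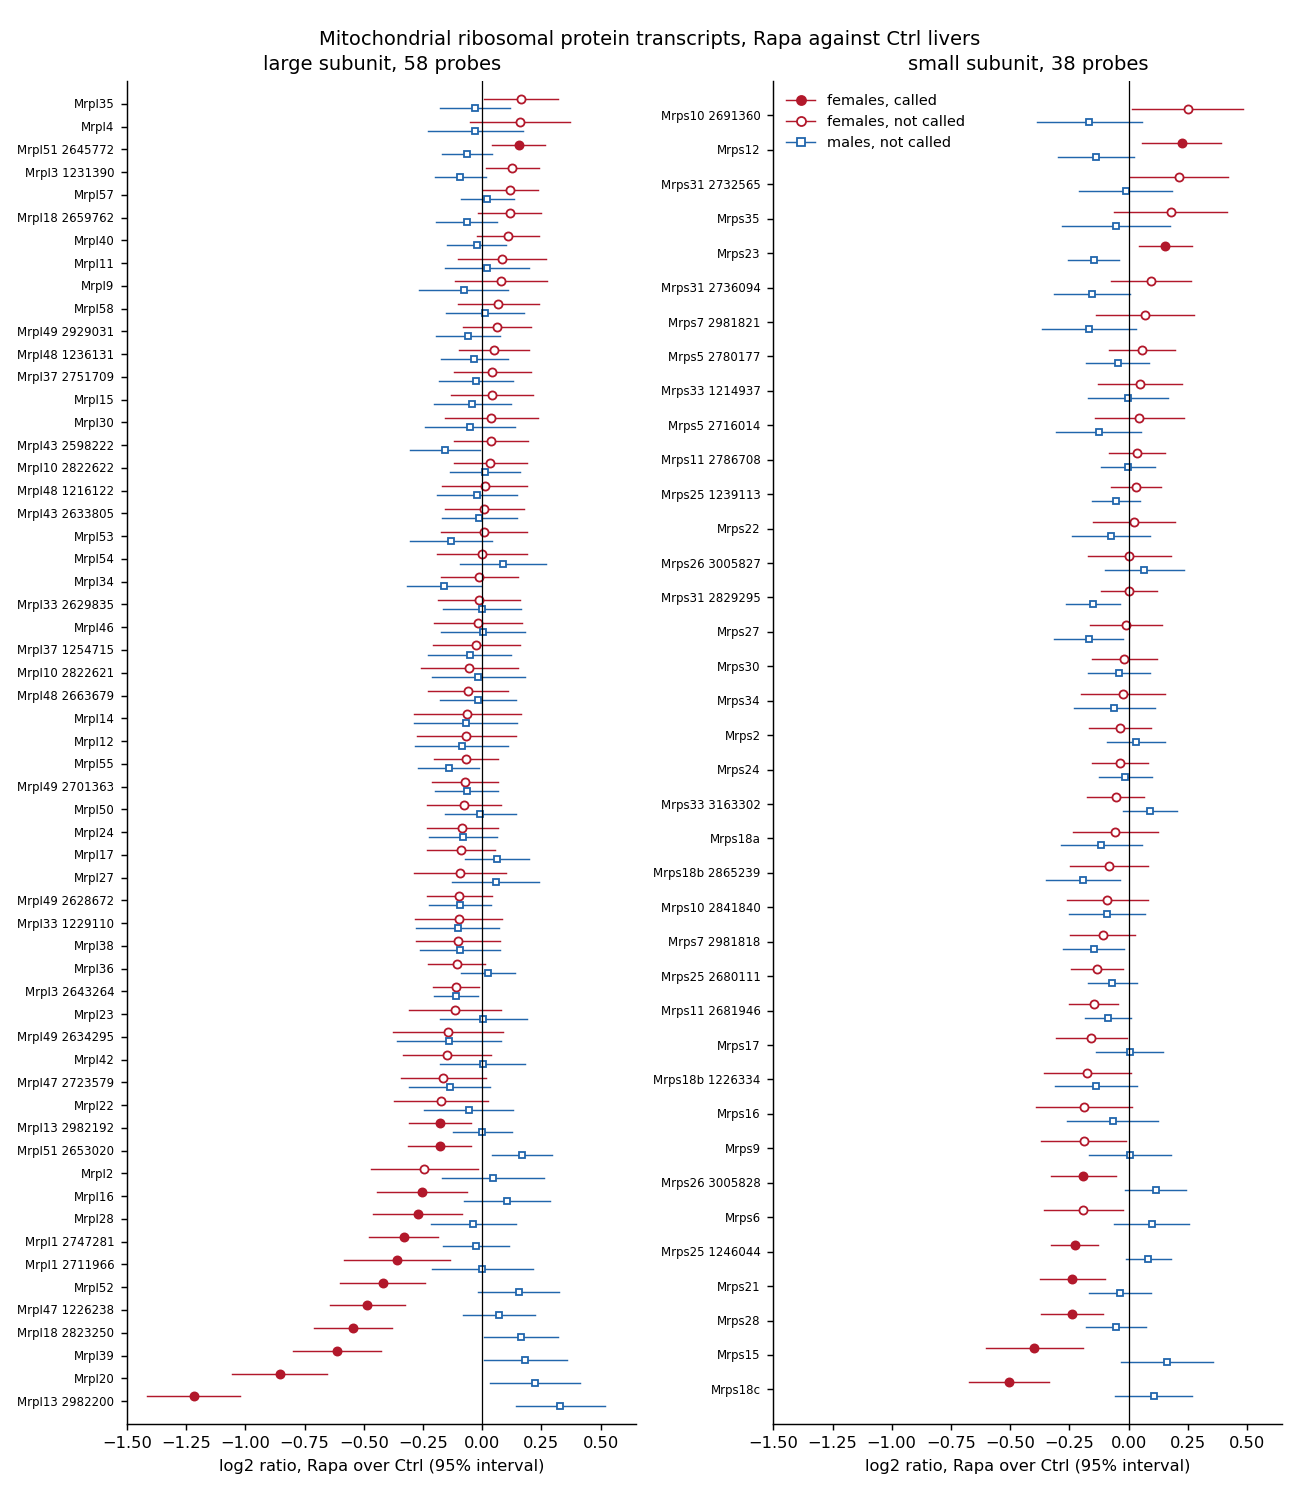
Log2 ratio of Rapa over Ctrl livers for each tested member, with its 95% interval from the limma fit, for females (circles, 11 Rapa F and 9 Ctrl F) and males (squares, 12 Rapa M and 10 Ctrl M); filled symbols passed the call. The lower end of each female column holds the called falls, down to -1.22 for an Mrpl13 probe, while no male symbol is filled.

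Mrpl13, a large subunit protein with a bacterial counterpart, showed the largest fall. Its probe ILMN_2982200 had a log2 level of 7.96 to 8.50 in Rapa F (median 8.18), against 9.03 to 10.08 in Ctrl F (median 9.27), so the groups did not overlap. The log2 ratio was -1.22 ± 0.10 (SE; n = 11 Rapa F and 9 Ctrl F; limma adjusted p = 1.89e-11), or 0.43-fold. Without Ctrl F 6 to 9, which held the 4 highest values, the ratio was -0.99 (limma adjusted p = 1.39e-09).

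Mrpl20, whose bacterial counterpart binds rRNA during assembly of the large subunit, came next. Levels ran between 10.13 and 10.74 in Rapa F (median 10.36), against 10.93 and 11.91 in Ctrl F (median 11.17), again without overlap. Here the log2 ratio was -0.86 ± 0.10 (SE; limma adjusted p = 2.06e-08), and -0.70 without Ctrl F 6 to 9. Mrps18c was the third member whose female groups did not overlap, at 10.27 to 11.00 in Rapa F (median 10.80) against 11.05 to 11.68 in Ctrl F (median 11.21). It shares its ancestry with Mrps18a and Mrps18b, all relatives of a single bacterial small subunit protein. Its log2 ratio was -0.51 ± 0.08 (SE; limma adjusted p = 1.87e-05). Groups that did not overlap were thus seen for 3 of 96 members, all lower in Rapa F, beside 1.79% of all tested probes. Over all tested probes such groups were also mostly lower in Rapa F, 203 probes against 25 that were higher.

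Mrpl39, which is specific to mitochondrial ribosomes, lay at 7.10 to 7.94 in Rapa F (median 7.65), against 7.87 to 8.49 in Ctrl F (median 8.24). The ranges overlapped only at their ends, and all 11 Rapa F livers were below the Ctrl F mean. The log2 ratio was -0.61 ± 0.09 (SE; limma adjusted p = 2.82e-06). The lowest of its Rapa F levels were near background, which limits the size of fold that can be shown. Mrpl18, a protein of the central protuberance of the large subunit, was not detected with probe ILMN_2823250 on any of the 11 Rapa F arrays and was detected on 8 of 9 Ctrl F arrays. Its measured means were 7.11 in Rapa F and 7.66 in Ctrl F, with a fitted log2 ratio of -0.55 (limma adjusted p = 2.65e-06). Because the Rapa F values were at background, the ratio is given as a bound, at least 1.21-fold lower in Rapa F, taking on each array the higher of the probe's own signal and the lowest signal of a detected probe.

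**Figure D2:**
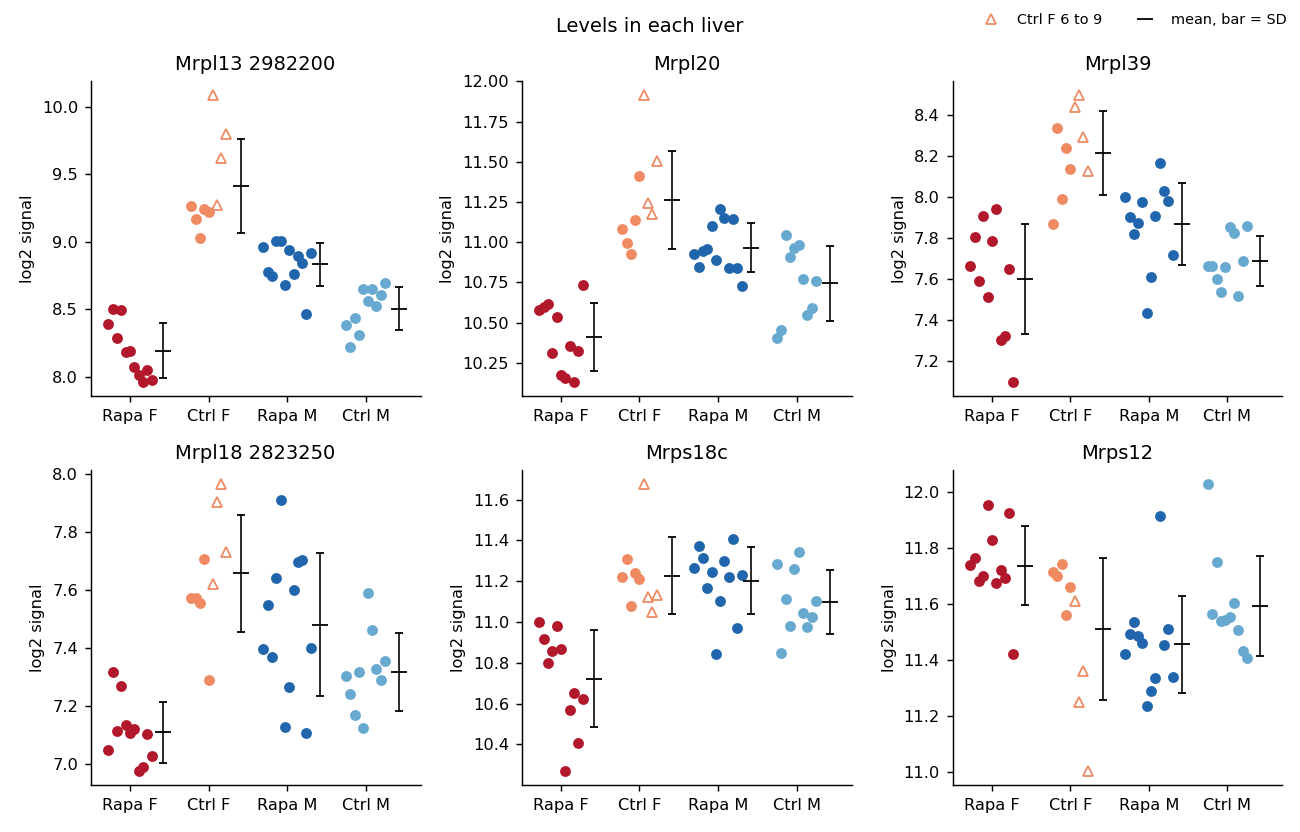
Log2 level in each liver (1 point per mouse) of 6 members in the 4 groups, with the group mean and SD at the right of each group; open triangles are Ctrl F 6 to 9. Mrpl13, Mrpl20 and Mrps18c had no overlap between Rapa F and Ctrl F, and the Mrps12 levels of 3 of the 4 livers marked by triangles were below all other Ctrl F livers.

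The other falls of the large subunit were smaller. Mrpl47, related to a bacterial protein at the exit of the tunnel, was at 7.31 to 7.87 in Rapa F with probe ILMN_1226238, against 7.71 to 8.34 in Ctrl F (log2 ratio -0.49 ± 0.08, SE). Mrpl52, a protein with no bacterial counterpart, was at 10.52 to 11.08 in Rapa F, against 10.95 to 11.70 in Ctrl F (log2 ratio -0.42 ± 0.09, SE). For both genes all 11 Rapa F livers were below the Ctrl F mean. Mrpl1, which forms the mobile stalk beside the exit site of the tRNA, fell with each of its probes, by 0.36 and 0.33 on the log2 scale (limma adjusted p = 0.0159 and 0.000741). The Mrpl1 probe with the smaller ratio, ILMN_2747281, was detected on 3 of 11 Rapa F arrays and 8 of 9 Ctrl F arrays, so that its ratio was set against a group mostly at background. Mrpl28 (-0.27) and Mrpl16 (-0.26), both with bacterial counterparts, and the other probe of Mrpl13 (ILMN_2982192, -0.18) also fell, as did a probe of Mrpl51.

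In the small subunit, Mrps15, whose bacterial counterpart binds rRNA early in assembly, was at 8.11 to 8.90 in Rapa F (median 8.61), against 8.59 to 9.25 in Ctrl F (median 8.91). The log2 ratio was -0.40 ± 0.10 (SE; limma adjusted p = 0.00367). Mrps21, another protein with a bacterial counterpart, and Mrps28 each had a log2 ratio of -0.24, with all 11 Rapa F livers below the Ctrl F mean. Without Ctrl F 6 to 9, Mrps21 was at -0.11 and no longer called, while Mrps28 was at -0.26 and called. Mrps25 fell with probe ILMN_1246044 by 0.23 on the log2 scale, and Mrps26 with probe ILMN_3005828 by 0.19.

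The 3 members that rose did so by small amounts. Mrps12, a protein of the decoding centre, was at 11.42 to 11.95 in Rapa F (median 11.72), against 11.01 to 11.74 in Ctrl F (median 11.61), and its log2 ratio was 0.22 ± 0.08 (SE; limma adjusted p = 0.0462). Mrps23, a small subunit protein found only in mitochondrial ribosomes, had a log2 ratio of 0.15 (adjusted p = 0.0372), as did Mrpl51 probe ILMN_2645772 (adjusted p = 0.0378), which was detected on only 4 of 9 Ctrl F arrays. All 3 ratios were nearer to 0 without Ctrl F 6 to 9, at 0.06, 0.05 and 0.02, and none of these was called.

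Without Ctrl F 6 to 9, 12 members were called in females, all lower, beside 2.37% of all tested probes higher and 4.64% lower. Of the 21 calls, 10 remained: both Mrpl1 probes, Mrpl13 ILMN_2982200, Mrpl18 ILMN_2823250, Mrpl20, Mrpl39, Mrpl47 ILMN_1226238, Mrps18c, Mrps25 ILMN_1246044 and Mrps28. Mrpl12 and Mrpl22, a protein of the tunnel wall, were added with log2 ratios of -0.28 and -0.33. Mrpl52 and Mrps15 were at -0.22 and -0.31 and were no longer called, and Mrpl16 was at -0.06. The calls of Mrpl16, Mrps26 and both Mrpl51 probes, like those of Mrps12 and Mrps23, were also lost when any of several single livers was left out, Ctrl F 6, 7, 8 and 9 among them in each case. The median over members without Ctrl F 6 to 9 was -0.12 for the large subunit and -0.09 for the small subunit. With the 3 components of never-detected probes as covariates, 14 members were called, all lower, beside 9.02% of all tested probes higher and 8.48% lower, and 13 of them were among the 21. Between Rapa F 1 to 4 and Ctrl F 1 to 5, the livers with the lowest animal numbers of each group, 2 members were called, Mrpl13 ILMN_2982200 (-0.77) and Mrpl20 (-0.59), beside 0.102% of all tested probes higher and 1.23% lower.

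The whole set was also followed in each liver, as the median over members of the difference from each probe's mean over the 42 livers. For the large subunit this median was between -0.30 and 0.14 in Rapa F (group median -0.08), against -0.32 and 0.21 in Ctrl F (group median 0.07). Ctrl F livers thus spanned the whole Rapa F range. The ends of the Ctrl F range were Ctrl F 6, the highest of all 42 livers, and Ctrl F 9, the lowest, whereas Ctrl F 1 to 5 lay between 0.02 and 0.13. Small subunit medians followed the same order at the ends, -0.27 to 0.08 in Rapa F against -0.29 to 0.23 in Ctrl F. In males the large subunit medians were -0.09 to 0.09 in Rapa M and -0.07 to 0.15 in Ctrl M.

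**Figure D3:**
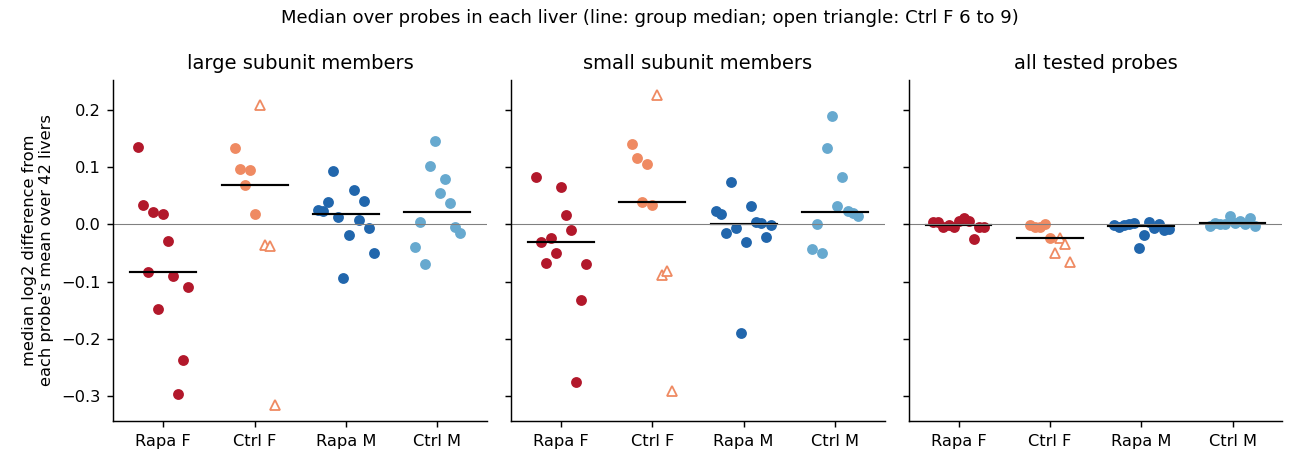
Median over large subunit members, small subunit members and all tested probes of the log2 difference from each probe's mean over 42 livers, 1 point per liver; lines are group medians and open triangles are Ctrl F 6 to 9. Large subunit medians ran between -0.30 and 0.14 in Rapa F and between -0.32 and 0.21 in Ctrl F, while the medians over all tested probes were between -0.07 and 0.01.

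Members varied together between livers of a group. After each group's mean was removed, pairs of members of different genes had a median correlation of 0.24 over the 42 livers (4528 pairs), with 0.24 for pairs within the large subunit and 0.26 within the small subunit. Over all pairs of tested probes the median was 0.0005. Probes of the same member gene reached a median of 0.67 (32 pairs). Pairs share the same arrays and their quality, so these values describe the set and carry no test. The members with the highest median correlation to the others were Mrpl22 (0.43), Mrps16 (0.42) and Mrps22 (0.42), and those with the lowest were Mrpl43 ILMN_2598222 and Mrpl54 (both -0.09).

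Probes of the same gene did not always move alike. Of the 21 genes with several tested probes, 14 had no probe called in females, 2 had every probe called in the same direction (Mrpl1 and Mrpl13) and 5 had probes that differed in call (Mrpl18, Mrpl47, Mrpl51, Mrps25 and Mrps26). The Mrpl13 probes differed by 1.04 in log2 ratio and the Mrpl18 probes by 0.66, since Mrpl18 ILMN_2659762 had a ratio of 0.12 and was not called. Mrpl51, a protein specific to mitochondrial ribosomes, was called lower with ILMN_2653020 (-0.18) and higher with ILMN_2645772 (0.15), and the within-group correlation of these probes was -0.25. The Mrpl51 probe that rose was detected on 10 of 11 Rapa F arrays and 4 of 9 Ctrl F arrays, and the probe that fell on 9 of 11 and 8 of 9. For Mrpl18 and Mrpl51 the probes thus give no single direction, whereas both probes of Mrpl13 and both of Mrpl47 (-0.49 and -0.16) were below 0. The Mrps25 probes lay between -0.23 and 0.03 and the Mrps26 probes at -0.19 and 0.0032, with only 1 probe of each gene called. Which transcript each probe binds is not described here.

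**Figure D4:**
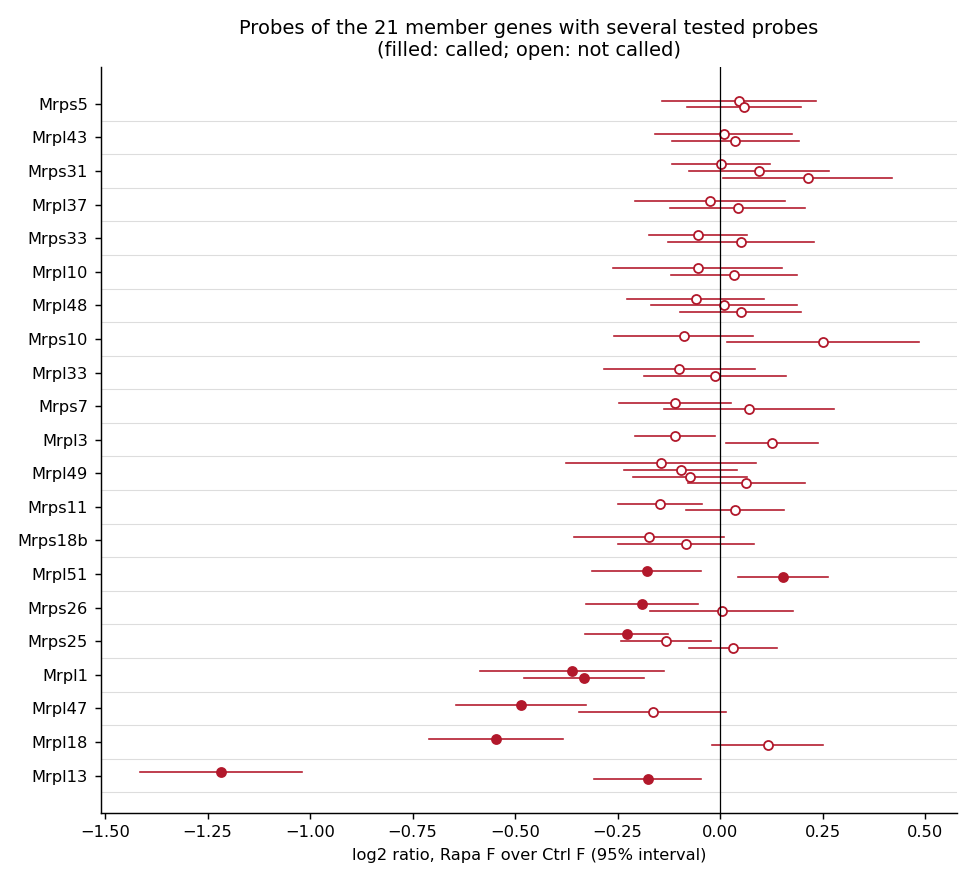
Log2 ratio of Rapa F over Ctrl F, with its 95% interval, for each probe of the 21 member genes with several tested probes; filled symbols passed the call. The Mrpl13 probes lie 1.04 apart and the Mrpl51 probes are called on opposite sides of 0.

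In males no member was called. Of the 96 tested members, 0 passed in Rapa M relative to Ctrl M by limma, beside 0.653% of all tested probes, and 14 had an unadjusted p under 0.05 (5 higher, 9 lower). The log2 ratios lay between -0.19 and 0.33. The methods' t-test, adjusted over the tested probes, called 1 member and a fit with array weights called 3, all higher in Rapa M. The median was -0.02 over the large subunit and -0.05 over the small subunit, against -0.0045 over all tested probes. When each array was centred on its median in place of quantile normalization, the median over all tested probes moved to -0.13 in males, the members' medians were -0.24 and -0.28 for the large and small subunit, and 30 members were called, all lower, beside 18.5% of all tested probes called lower.

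The male values of single members ran opposite to the female ones for several of those that fell in Rapa F, though none was called in males. Mrpl20 was at 0.22 and Mrpl16 at 0.10 in males. Others did not run opposite, with Mrpl28 at -0.04 and the Mrpl1 probes at 0.00055 and -0.03. Mrpl13 ILMN_2982200 was at 8.46 to 9.01 in Rapa M (median 8.87), against 8.22 to 8.70 in Ctrl M (median 8.54), and 11 of 12 Rapa M livers were above the Ctrl M mean. This log2 ratio was 0.33 ± 0.09 (SE, n = 12 Rapa M and 10 Ctrl M), with a limma adjusted p of 0.0878 that missed the threshold. Mrps23 and Mrps31 ILMN_2829295 each had a log2 ratio of -0.15 (limma adjusted p = 0.19 and 0.218). The 95% intervals were -0.25 to -0.04 for Mrps23 and -0.27 to -0.04 for Mrps31, so the missed threshold does not show that the groups were alike.

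Whether the response differed between the sexes was asked with the interaction term, the female log2 ratio minus the male one. It was called for 17 members of 96, with 4 more positive in females, beside 11.9% of all tested probes, and 13 more negative, beside 8.51%. The most negative were Mrpl13 ILMN_2982200 (-1.55 ± 0.14, SE; limma adjusted p = 2.81e-10), Mrpl20 (-1.08) and Mrpl39 (-0.80). Mrpl18 ILMN_2823250 was also called, but with no Rapa F array above background its size is not placed in this order. The next were Mrps18c (-0.61), Mrpl52 (-0.57), Mrps15 (-0.56) and Mrpl47 ILMN_1226238 (-0.56). Among called members, Mrps12 (0.36) and Mrps23 (0.30) were the most positive. The highest term of all, 0.42 in the small subunit, was not called. Mrpl3 ILMN_1231390, from a protein close to the site of peptide bond formation, was called at 0.22 although it was called in neither sex alone. The female arm of this term uses the same Ctrl F arrays as the female comparison. Without Ctrl F 6 to 9, 9 of the 17 remained and all of them were negative, with Mrpl13 at -1.32 and Mrpl20 at -0.92. Of all tested probes, 3.84% were then more positive and 5.12% more negative. With median centring 30 members were more positive and 7 more negative in females, beside 31.5% and 5.28% of all tested probes. The median over all tested probes was then 0.19.

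Between the sexes on Rapa, members were more often higher in males. In Rapa M relative to Rapa F, 29 members were higher, beside 15.8% of all tested probes, and 7 were lower, beside 16.3%. Large subunit members were higher for 21 of 58 probes and small subunit members for 8 of 38. Mrpl36, a small protein with a bacterial counterpart, was at 11.24 to 11.46 in Rapa M, against 10.96 to 11.24 in Rapa F, with the ranges nearly touching, and was the only member whose groups did not overlap, beside 2.69% of all tested probes. Mrpl20 was at 10.73 to 11.21 in Rapa M, against 10.13 to 10.74 in Rapa F (log2 ratio 0.56), and Mrps18c at 10.85 to 11.41 in Rapa M, against 10.27 to 11.00 in Rapa F (log2 ratio 0.48). Mrpl1 ILMN_2711966 (0.41), Mrpl16 (0.37), Mrps21 (0.37), Mrpl50, which is specific to mitochondrial ribosomes (0.37), and Mrpl10, which anchors the stalk (0.28 with ILMN_2822621), were also higher in Rapa M. The other Mrpl10 probe, ILMN_2822622, was at -0.02 and was not called. Mrps7, whose bacterial counterpart starts the folding of the small subunit's head, was lower in Rapa M with probe ILMN_2981821 (-0.40) but not called with ILMN_2981818 (0.01). Also lower were Mrps23 (-0.31), Mrps12 (-0.28) and Mrpl15, another protein with a bacterial counterpart (-0.28). With median centring the split was 10 higher and 9 lower, beside 9.76% and 18.6% of all tested probes.

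On the control diet about as many members were higher in males as were lower. In Ctrl M relative to Ctrl F, 11 members were higher, beside 22.5% of all tested probes, and 10 were lower, beside 17.7%. Mrpl13 ILMN_2982200 (-0.91) and Mrpl39 (-0.53) were lower in every Ctrl M liver than in any Ctrl F liver, which makes 2 members without overlap beside 6.48% of all tested probes. Mrpl20 (-0.52), Mrps15 (-0.41), Mrpl52 (-0.40) and Mrpl18 ILMN_2823250 (-0.34) were also lower in Ctrl M. Mrps18b (0.37 with probe ILMN_2865239), Mrpl55 (0.32), Mrps10 (0.31 with probe ILMN_2841840) and Mrpl50 (0.30) were higher in Ctrl M.

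Mrps31 ILMN_2829295 (0.18), Mrps27, a protein with RNA-binding repeats (0.24), and Mrpl51 ILMN_2645772 (0.24) were higher in Ctrl M but not called between the sexes on Rapa. On the control diet without Ctrl F 6 to 9 they were at 0.09, 0.21 and 0.11, and none was called. The interaction term was called for this Mrpl51 probe but not for the Mrps31 probe or Mrps27. With median centring, which moved the median of all tested probes to 0.14, 45 members were higher in Ctrl M and 4 lower. Of the 12719 tested probes, 4736 (37.2%) were then higher and 1465 lower, so the larger count of higher members went with a shift of all probes. Without Ctrl F 6 to 9, 4 members were higher and 9 lower, beside 13.8% and 11.8% of all tested probes.

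Set side by side, 5 probes were lower in males on the control diet and higher in males on Rapa, those of Mrpl13, Mrpl18, Mrpl20, Mrpl39 and Mrpl47 that fell in Rapa F. The share of all tested probes with this pattern, or with the same call on both diets, was not counted. Without Ctrl F 6 to 9 the control diet calls of Mrpl18 (-0.22) and Mrpl47 ILMN_1226238 (-0.23) were lost. For Mrpl18, not detected in Rapa F, the difference on Rapa is a bound of at least 1.07-fold higher in Rapa M. For each of the 5 probes the Ctrl F mean was the highest of the 4 groups and the Rapa F mean the lowest. The calls that picked these probes fix this order in part. Mrpl12, which forms the stalk that receives translation factors, was higher in males on both diets, as were Mrpl36, Mrpl47 ILMN_2723579, Mrpl50, Mrpl55, Mrps10 ILMN_2841840, Mrps18b ILMN_2865239 and Mrps21, and Mrps2 was lower in males on both. Neither of the other probes was called on either diet, with Mrps10 ILMN_2691360 at -0.16 on Rapa and 0.26 on the control diet and Mrps18b ILMN_1226334 at 0.11 and 0.07. The Mrpl12 call on the control diet rested on Ctrl F 9, which was at 10.33 while the Ctrl F median was 11.51. It was lost without that liver, as was that of Mrpl47 ILMN_2723579. On the control diet the Mrps21 call was lost with 12 of 19 single livers left out and the Mrpl36 call with 5 of 19. Without Ctrl F 6 to 9, Mrpl12 (0.08), Mrpl47 ILMN_2723579 (0.16), Mrps10 ILMN_2841840 (0.25) and Mrps18b ILMN_2865239 (0.19) were not called, and Mrpl36, Mrpl50, Mrpl55, Mrps21 and Mrps2 were. Background signal of the arrays differed between the sexes as given above. With the 3 components of never-detected probes as covariates, 3 members were called in Rapa M relative to Rapa F and 0 in Ctrl M relative to Ctrl F, where 0 of all tested probes were called.

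**Figure D5:**
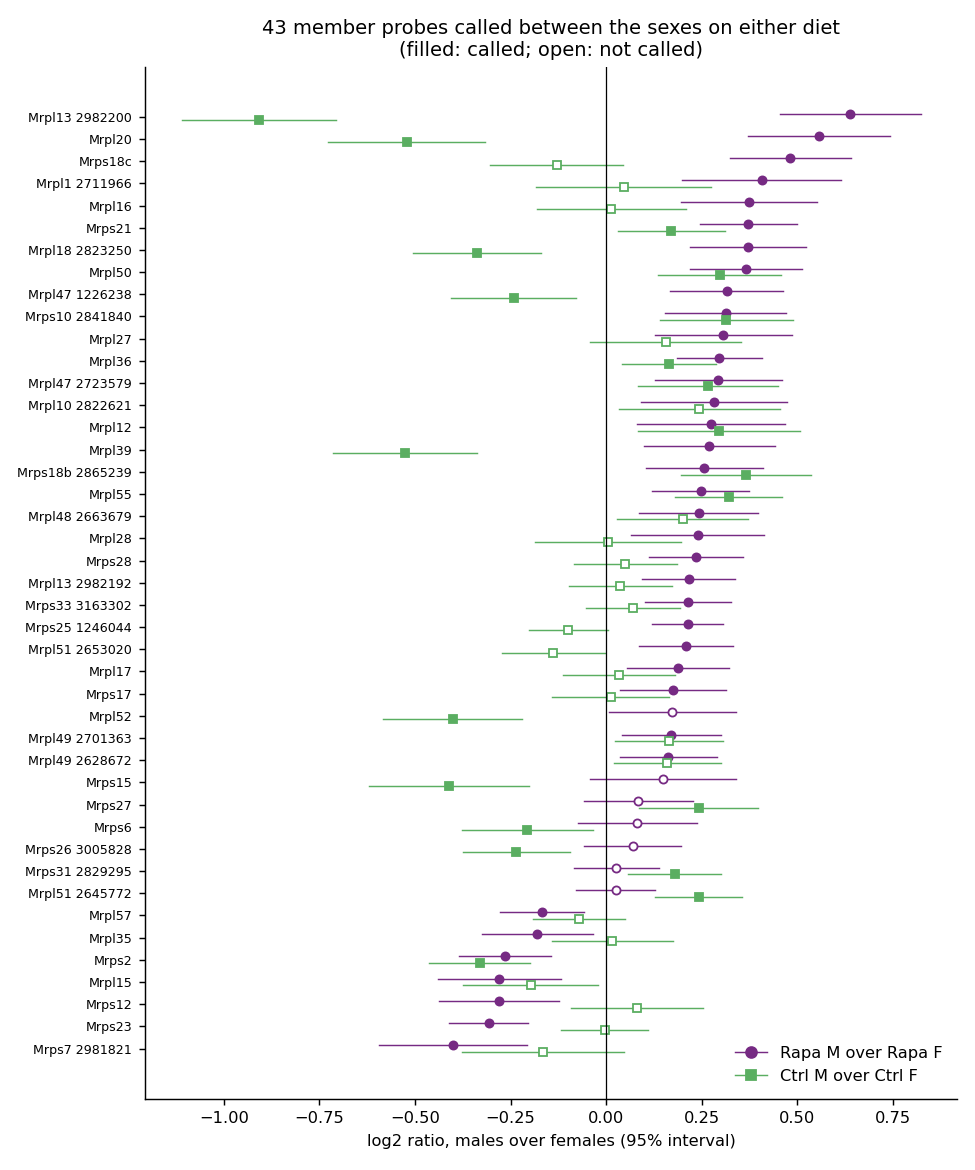
Log2 ratio of males over females, with its 95% interval, for the 43 member probes called between the sexes on either diet; circles are Rapa M over Rapa F and squares Ctrl M over Ctrl F, filled where called. Mrpl13 ILMN_2982200, Mrpl20, Mrpl18 ILMN_2823250, Mrpl39 and Mrpl47 ILMN_1226238 have filled symbols on both sides of 0.

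Some members were near 0 in both diet comparisons over all livers. Mrps5, which lines the path of the mRNA, had female log2 ratios of 0.05 and 0.06 and male ones of -0.13 and -0.05 with its probes. Mrps18a and Mrps30, the large subunit proteins with small subunit names, were at -0.06 and -0.02 in females and -0.11 and -0.04 in males. None of these was called by limma in either sex. Mrpl12 was at -0.07 in females and -0.09 in males and was not called over all livers, but without Ctrl F 6 to 9 it was at -0.28 in females and called (limma adjusted p = 0.0284).

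Over all members, the Rapa F mean was the lowest of the 4 groups for 44 of 96 (45.8%, against 22.1% of all tested probes). The Ctrl M mean was the highest for 38 members (39.6%, against 27.7%). The Rapa M mean was the lowest for 28 members (29.2%, against 18.2%) and that of Ctrl F for 13 (13.5%, against 36.1%). These orders rank quantile-normalized means, called or not, and were not counted under other settings. With median centring the median log2 ratio over members was 0.03 in females and -0.25 in males. Between Rapa M and Rapa F it was then -0.0073.

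Genes that act with the mitochondrial ribosome were examined as well, 52 genes with 74 tested probes. In females 8 of these probes rose and 9 fell, shares near the 12.2% and 9.37% of all tested probes, and in males 0 were called by limma. Calls of these genes were not examined under other settings. Without Ctrl F 6 to 9 only 2.37% of all tested probes rose in females and 4.64% fell. Of the translation factors, Tufm, which brings tRNAs to the ribosome, rose (0.18), while the release factor genes Mtrf1 (-0.43 and -0.20 with 2 of its 3 probes) and Mtrf1l (-0.31) fell. The remaining Mtrf1 probe was at 0.07 and was not called. The probe with -0.43, ILMN_1230693, had a mean level of 7.37 in Rapa F and 7.80 in Ctrl F. The floor used for the Mrpl18 bound had a mean of 7.38 in Rapa F, so the size of this fall is uncertain. Among assembly factors, Eral1, which handles the small subunit rRNA, rose in Rapa F (0.34) and Mtg1, a GTPase of large subunit assembly, fell (-0.23).

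Lrpprc and Slirp, whose products bind each other and stabilise mitochondrial mRNAs, had called probes in opposite directions. Lrpprc rose with 2 of its 3 probes (0.42 and 0.28), and Slirp was lower with ILMN_1239860 (-0.63) but not called with ILMN_2684667 (-0.0039). Chchd1, a small subunit protein without an Mrps symbol, fell by 0.29 on the log2 scale. Gabpa, the DNA binding subunit of the ETS factor named above, rose (0.19), and its partner Gabpb1 fell with 1 of 2 probes (-0.20). The Gabpa mean levels, 7.67 in Rapa F and 7.48 in Ctrl F, were near the floor of 7.38 given above for Rapa F. The size of this rise is therefore uncertain. Ppargc1b, a coactivator of genes for mitochondrial proteins, had the largest called ratio among the regulators (0.39, limma adjusted p = 0.0169).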

How the data were processed

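Liver RNA of 42 mice was measured on Illumina Mouse Ref8 (version 2.0) arrays. The authors deposited signal intensity and a detection score (a fraction, 1 minus the detection p) for 25697 probes, and log2 quantile-normalized values for 17082 of them, made with Genome Studio 1.6 and Matlab 2011a according to the study's methods. Here log2 intensities were quantile normalized over all probes, and tests were run on the probes of the deposited normalized table that reached a detection p under 0.05 on 9 arrays or more. Group means were fitted over the 4 groups with limma 3.58.1 in R 4.3.3, with Benjamini-Hochberg adjusted p under 0.05 and absolute log2 ratio over 0.15 as the call. Signal and normalized columns of each mouse matched (r at least 0.998).

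Gene symbols came from GEO's platform annotation: 16027 probes had 1 symbol and 1055 none. Promoters were the first RefSeq entry of a symbol. The rule named, for each comparison and subunit, up to 6 called members with the highest and 6 with the lowest log2 ratio, the 3 members with the lowest p in males, genes whose probes differed in call, Mrps5, Mrpl12, Mrps12, Mrps18a, Mrps30, and up to 4 called genes of each related list. Other members are named where a count includes them. The members, related gene lists and marker lists were chosen with earlier results of these data known. Alternatives covered the deposited values, background correction, scaling, filters, the methods' t-test, fits on the compared groups alone, array weights, replicate and animal number blocks, thresholds, arrays left out and covariates. The scripts were tested on simulated data. The labels give each array its own animal number, so each was taken as 1 mouse.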

Additional observations from a re-analysis of the deposited data

Results flagged for a closer look

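Across the groups of 9 and 10 livers, 96 sets of values of members chosen by the naming rule were examined for a liver far from the others, and 9 were found, where chance alone marks about 5% of such sets. The sets share the same livers and are not independent, so the count is not tested against that share. In Ctrl F these were Ctrl F 6 for Mrps18c (11.68) and Mrps33 (12.09 with ILMN_3163302), both high, and Ctrl F 9 for Mrpl12 (10.33), Mrps10 (8.23 with ILMN_2841840), Mrps27 (7.66) and Mrps5 (8.54 with ILMN_2716014), all low. In Ctrl M they were Mrps31 in Ctrl M 4 (11.51, high), Mrps10 in Ctrl M 3 (8.50, low) and Mrps26 in Ctrl M 6 (8.76 with ILMN_3005827, high). All 6 values of the Ctrl F group belonged to 2 of the 4 livers that stood apart in detected probes, and their part in the called ratios was not tested beyond leaving them out.

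The response to Rapa differed between the sexes, by the limma interaction term (female minus male log2 ratio), for 17 members. The term was -1.55 for Mrpl13 ILMN_2982200, -1.08 for Mrpl20, -0.80 for Mrpl39, -0.61 for Mrps18c, -0.57 for Mrpl52, -0.56 for Mrps15 and -0.56 for Mrpl47 ILMN_1226238. Mrpl18 ILMN_2823250 had a fitted term of -0.71, which is no measured size because the probe was detected on 0 of 11 Rapa F arrays. Smaller negative terms were found for Mrpl16 (-0.36), Mrpl51 ILMN_2653020 (-0.35), Mrps25 ILMN_1246044 (-0.31), Mrpl1 ILMN_2747281 (-0.31, detected on 3 of 11 Rapa F arrays) and Mrps26 ILMN_3005828 (-0.30). Positive terms were found for Mrps12 (0.36), Mrps23 (0.30), Mrpl3 ILMN_1231390 (0.22) and Mrpl51 ILMN_2645772 (0.22, detected on 4 of 9 Ctrl F arrays).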

How the results depend on the processing

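Of the 21 members called in Rapa F relative to Ctrl F, 11 were called with median centring, 12 with the methods' t-test, 13 in a fit on the compared groups alone, 13 with the runs of animal numbers as a random block, 12 without Ctrl F 6 to 9, 2 between Rapa F 1 to 4 and Ctrl F 1 to 5, and 10 at a log2 ratio over 0.3, counting any member called under that setting. In males, where 0 were called, 30 were called with median centring, 1 with the t-test, 1 in the fit on the compared groups alone, 3 with array weights and 1 without Ctrl F 6 to 9. The interaction count of 17 was 37 with median centring, 11 among probes detected on all arrays, 9 without Ctrl F 6 to 9 and 7 with the 3 components of never-detected probes. Of all tested probes, 31.5% were higher and 5.28% lower with median centring, and 1.67% and 2.71% with the 3 components. The count between Ctrl M and Ctrl F, 21, was 49 with median centring, 13 without Ctrl F 6 to 9, 0 with the 3 components and 10 over 0.3. That between Rapa M and Rapa F, 36, was 19, 3 with the components and 13 over 0.3. The male medians moved to -0.24 (large) and -0.28 (small) with median centring and to 0.080 (large) with the components. The causes were not tested.

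Leaving out single mice gave 14 to 22 called members in females, with 14 without Ctrl F 6 or without Ctrl F 8, always 0 in males, 14 to 18 for the interaction, 19 to 25 between control sexes and 32 to 41 between Rapa sexes. Medians ranged from -0.10 to -0.04 (large) and -0.06 to -0.0069 (small) in females, and from -0.04 to -0.0030 (large) and -0.06 to -0.04 (small) in males. With the replicate block, the counts were 18, 0, 16, 24 and 35. The numbers only name the mice: the 58 pairs with equal numbers had correlations of -0.50 to 0.51 (median 0.02), with 26 over 0.1.

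Of the values for named members under these alternatives, 786 kept their direction and side of the threshold, 183 lost the call, 6 gained it and 24 changed sign. In females the sign changed between Rapa F 1 to 4 and Ctrl F 1 to 5 for Mrps23 (-0.025) and Mrpl51 ILMN_2653020 (0.0039). With median centring it changed for Mrps26 ILMN_3005828, in the interaction (0.016) and between control sexes (0.019). The other changes of sign came with the 3 components. Between Ctrl M and Ctrl F they were Mrpl51 ILMN_2645772 (-0.17), Mrpl20 (0.71), Mrpl39 (0.39), Mrpl18 (0.38), Mrpl52 (0.86), Mrps15 (0.49), Mrps26 (0.13), Mrpl12 (-1.18), Mrpl47 ILMN_2723579 (-0.58), Mrps18b (-0.22), Mrps2 (0.30) and Mrps6 (0.45). Between Rapa M and Rapa F they were Mrpl12 (-0.93), Mrpl47 ILMN_2723579 (-0.46), Mrps18b (-0.36), Mrps2 (0.23), Mrpl1 ILMN_2711966 (-0.15), Mrpl15 (0.50), Mrpl57 (0.25) and Mrpl17 (-0.15). These components held 97.5% of the sex split and cannot be told apart from sex. Signals near background, as for Mrpl18 ILMN_2823250 and Mrpl39, limit the size of a fold that the arrays can show.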
